A study of Mus musculus with 10 samples.

Results

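Myosin light chains are small proteins of the EF-hand family that wrap the neck of the myosin head. Each head carries an essential light chain, which stiffens the neck, and a regulatory light chain, which can be phosphorylated by a calmodulin-dependent kinase. Skeletal muscle builds them in fast, slow and embryonic forms from separate genes, and regenerating fibres use the embryonic essential chain for a time before the adult form replaces it. The 9 genes listed here were the essential chains Myl1, Myl3, Myl4 and Myl6b, the regulatory chains Mylpf, Myl2 and Myl7, and the kinases Mylk and Mylk2. A probe set, the group of short probes whose signals are summarised into 1 value, counted as a member when the annotation of the array platform gave it 1 gene and that gene was in the list. This found 11 of 12422 probe sets, for 8 of the 9 listed genes and of 8251 genes on the array. Mylk2, the kinase of skeletal muscle, had no such probe set and was not analysed here.

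The samples were pieces of gastrocnemius, the main calf muscle, from male mice of 16 weeks. They were 5 arrays from normal mice, called control here, and 5 from mdx mice, which lack functional dystrophin, the protein that ties the fibre's cytoskeleton to its membrane, and whose fibres go through rounds of degeneration and regeneration. The labels name no strain for the normal mice, no treatment in either group, and do not say that the arrays came from separate animals, so each p-value is set against array-to-array spread that could be technical. The comparison asks how light chain transcripts differ between dystrophin-deficient, regenerated muscle and normal muscle.

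Values are linear intensities, and the number of arrays limits their precision. The noise level was 372 intensity units, the root mean square of all values below 0. Each of the 8 measured markers of skeletal muscle, the labelled tissue, was above it on at least 1 array. Their summed intensity ran from 175377 to 283796 in control and from 141770.0 to 198149 in mdx, and 6 of the 8 were called lower in mdx, against 3 after quantile normalization. The dystrophin gene Dmd stood at 797 ± 147 in control and at 188 ± 33.7 in mdx (SD, n = 5), below the noise level on all mdx arrays and at least 2.11-fold lower (limma adjusted p = 6.55e-06). A probe set reads the amount of transcript and not the mutation, so this does not by itself check the genotype. The deposited arrays had about the same mean, with means trimmed by 2% at each end of 789 to 793 on 9 arrays and 715 on mdx replicate 1, so a value says how bright a probe set was beside the rest of its own array. The 9 probe sets of transcripts added at hybridization, which do not come from the muscle, were dimmer in mdx, with geometric means of 5936 to 7940.1 against 9762 to 12868 in control. Scaling arrays to them instead moves the median change of all tested probe sets to 0.35 on the log2 scale and makes 96.6% of calls higher in mdx, against 47.1% as deposited. The skeletal muscle markers show it, with a median of -0.56 as deposited, -0.12 after quantile normalization and 0.071 with that scaling, when Dmd was the 1 called lower. In bulk muscle, fewer fibres of a type and less RNA per fibre cannot be told apart.

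Myl2 and Myl3, the slow regulatory and slow essential light chains, were the members that fell together by the most, and the sequence just before each gene's start is shown for this pair. Both are from RefSeq on build GRCm38.p6, plus strand, 250 bases ending at the base before the start, with capitals marking matches to any of 5 motifs searched on both strands. The motifs were the E-box, spelled CANNTG and bound by myogenic factors such as MyoD, the muscle element known as MCAT, spelled CATTCC and bound by Tead factors, the letters TATAAA of the core promoter, and the MEF2 and CArG elements, which bind Mef2 and serum response factor.
Myl2, chr5:122092474-122092723: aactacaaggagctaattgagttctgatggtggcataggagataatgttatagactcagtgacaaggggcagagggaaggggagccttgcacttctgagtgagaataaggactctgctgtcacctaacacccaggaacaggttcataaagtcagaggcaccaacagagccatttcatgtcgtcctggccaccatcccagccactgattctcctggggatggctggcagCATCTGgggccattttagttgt
Myl3, chr9:110763428-110763677: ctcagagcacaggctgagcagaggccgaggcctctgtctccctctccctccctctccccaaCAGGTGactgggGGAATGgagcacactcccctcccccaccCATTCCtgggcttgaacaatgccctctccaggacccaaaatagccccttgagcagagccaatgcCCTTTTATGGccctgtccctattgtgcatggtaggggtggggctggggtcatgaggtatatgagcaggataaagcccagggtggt

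The Myl3 window held 1 E-box, 2 MCAT matches and 1 CArG match, at positions -189, -177, -149 and -85 from the start, none overlapping another. The Myl2 window held 1 E-box, at position -22, and no match to the other 4 motifs. A second annotated start of Myl2, inside the gene, has a window of its own that is not shown. That window held 2 E-boxes, at positions -130 and -48 from its start, and 1 TATAAA match, at -216. Of 32851 windows of this length, 66.2% held an E-box, 12.6% MCAT, 1.47% CArG, 2.92% MEF2 and 12.4% TATAAA, so the E-box that the pair shares is common to most windows. The windows of Myl4, Myl1, Mylpf and Mylk lay inside the annotated span of their genes and are not shown either. A match describes the letters only and is no evidence of binding.

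Of the 11 probe sets, 8 were bright enough to be tested, that is, above an intensity of 134 on at least 5 of the 10 arrays. The test was limma on log2(intensity + 372), with Benjamini-Hochberg adjustment over all 7612 tested probe sets and a threshold of 0.05. By it, 2 rose, 4 fell and 2 did not pass, or 6 called of 8, against a background in which 33.6% of all tested probe sets were called, 15.8% higher and 17.8% lower. For 4 of the 8 the control and mdx arrays did not overlap, against 25.1% of all tested. The members called by more than 1 on the log2 scale were 4, against 4.72% of all tested. The median log2 change was -0.48 over the 8 and -0.033 over all tested. The 8 probe sets read 6 genes, and probe sets of 1 gene are not independent.

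**Figure D1:**
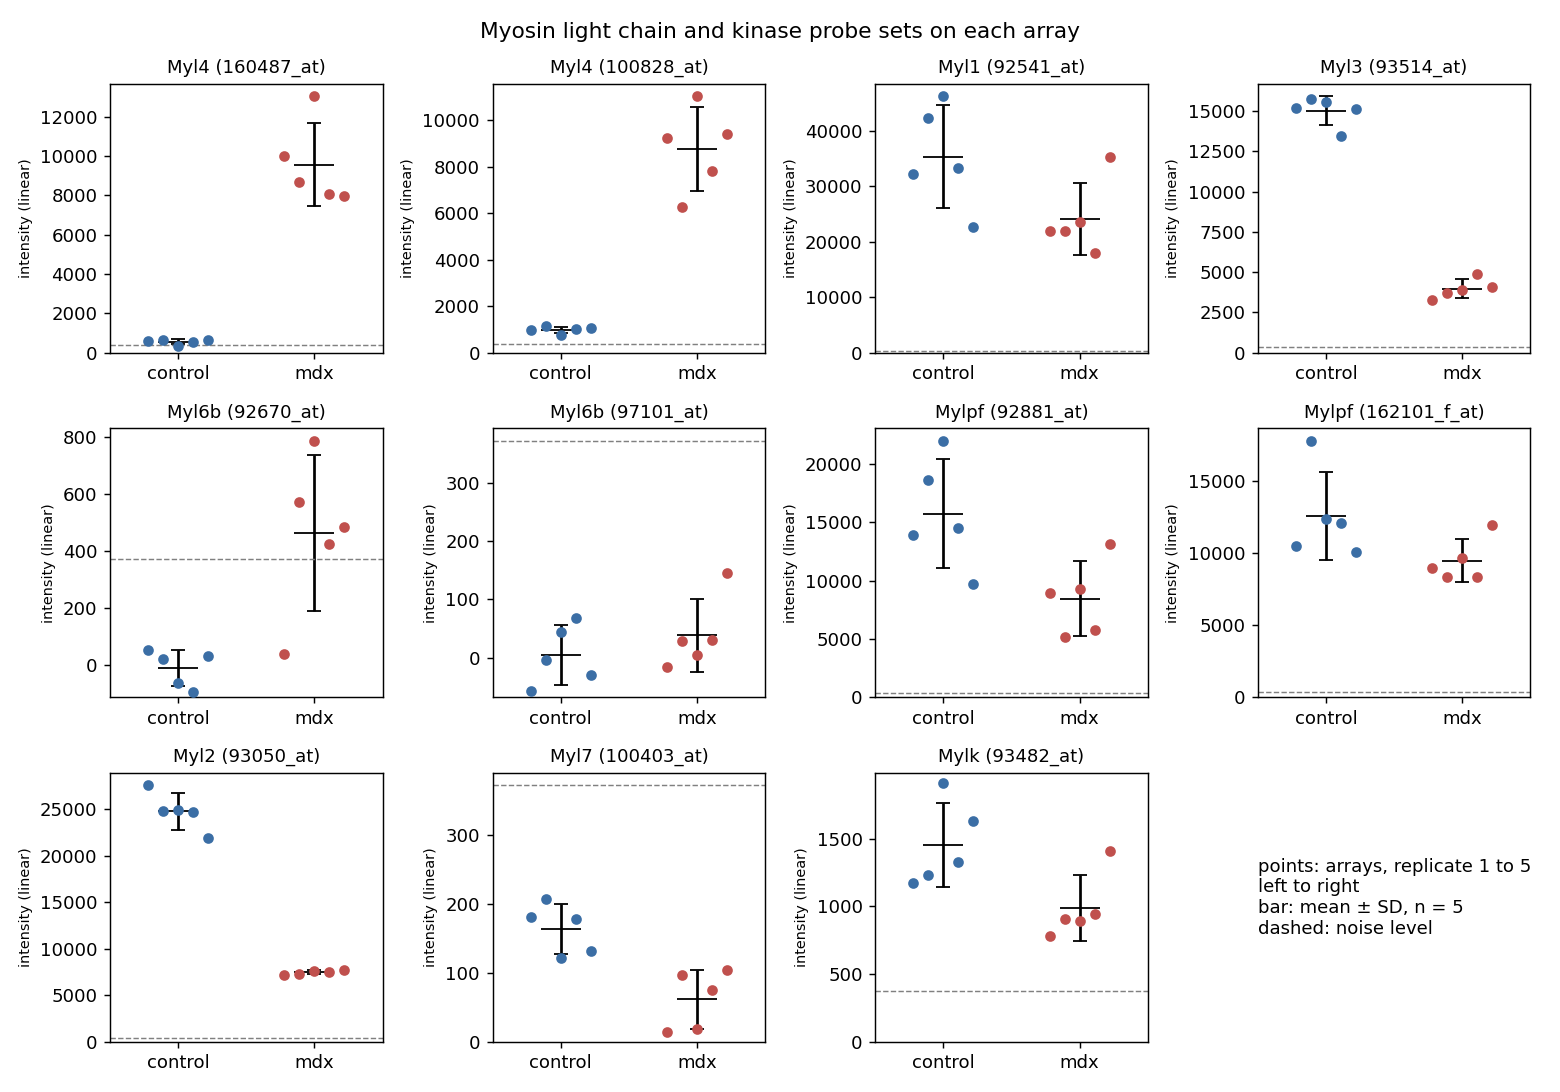
Linear intensity of each of the 11 probe sets on each array, control in blue and mdx in red, with replicates 1 to 5 from left to right, the mean ± SD (n = 5) in black and the noise level of 372 dashed. Myl4, Myl3 and Myl2 show 2 separate groups of points, the fast chains Myl1 and Mylpf overlap between the groups, and Myl7 and 1 probe set of Myl6b lie below the noise level throughout.

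Among the essential chains, Myl4 rose the most. Myl4 encodes the essential light chain of embryonic skeletal muscle and of the adult atrium. Its probe set 160487_at read 607, 627, 351, 561 and 663 on control replicates 1 to 5 and 9982, 8675, 13036, 8073 and 7969 on mdx replicates 1 to 5. Control replicate 3 lay below the noise level and the other 4 control arrays above it, and the lowest mdx array was far above the highest control array. The mean went from 562 ± 123 to 9547 ± 2109 (SD, n = 5), 17.0 times as high, a log2 rise of 3.40 (SE 0.14, limma adjusted p = 6.46e-09). A change on this scale, with 372 added to each intensity, understates the change of dim genes and here stands for 10.5-fold. The control intensities are near the noise level, so neither figure is precise.

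The other Myl4 probe set, 100828_at, read 977, 1133, 769, 1025 and 1046 in control and 9229, 6252, 11066, 7821 and 9426 in mdx. Again the groups did not overlap, and control replicate 3 was again the lowest control and mdx replicate 3 the highest mdx array. The mean went from 990 ± 136 to 8759 ± 1813 (SD, n = 5), 8.85 times as high. The log2 change was 2.73 (SE 0.13, limma adjusted p = 2.19e-08), which stands for 6.62-fold. Over all 7612 tested probe sets, those of Myl4 ranked 7 and 17 from the highest change. They did not change equally. The difference of the log2 values of 100828_at and 160487_at on the same array fell from 0.55 ± 0.088 in control to -0.12 ± 0.25 in mdx, a shift of -0.67 (exact permutation p = 0.00794, adjusted p = 0.0127 over 8 such differences, two-sided). That p is the smallest that 5 arrays against 5 can give.

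Since Myl4 is also the atrial form, heart markers are given beside it, with those of other cell types in the muscle. Of 7 heart markers measured, Nppb, Myh6, Tnni3 and Nkx2-5 were below the noise level on all arrays. Their summed intensity, from 1624 to 2442 in control and from 1664 to 2392 in mdx, overlapped between the groups, and of the 4 tested limma called 0 in either direction, or 1 higher with arrays scaled to the hybridization controls. The 4 red cell markers measured had a lower sum in mdx, at 9075 to 15402 against 17638 to 31589.9 in control, with Slc4a1 and Epb42 below the noise level on all arrays. Nearly all of that sum was Hba-a1, with means of 25470 in control and 12425 in mdx. Its log2 change was -1.02 as deposited, called lower, and -0.40 with arrays scaled to the hybridization controls, not called (limma adjusted p = 0.111). Macrophage markers rose with Myl4, 9 of 10, with a sum of 3189 to 6157 in control and 46464 to 62533 in mdx and none of the 10 below the noise level throughout. Fibroblast markers summed to 44365 to 54851 in control and 74250 to 87848 in mdx, with 6 of 9 higher and 2, Dcn and Pdgfra, lower. With arrays scaled to the hybridization controls 8 of the 9 were higher and Dcn and Pdgfra turned to 0.29 and 0.095, and after quantile normalization Dcn was at 0.14. The part of these cell types in the Myl4 result was not tested.

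By Pearson r of log2 values over the 10 arrays, the genes most like Myl4 (160487_at) were Tyrobp, an adaptor of myeloid cells (0.996), Igf2, a fetal insulin-like growth factor (0.996), Lum, a proteoglycan of collagen fibrils (0.995), the other Myl4 probe set (0.994) and the interferon-response gene Ifi204 (0.994). In all, 223 tested probe sets had an r above 0.95. The points share the group difference, so these values mainly record which genes separate the groups cleanly.

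Myl3, the essential chain of slow fibres and of the ventricle, went the other way. It read 15182, 15762, 15589, 13480.5 and 15145 in control and 3301, 3717, 3912, 4877 and 4064 in mdx. Every mdx array lay far below every control array. The mean went from 15032 ± 906 to 3974 ± 580 (SD, n = 5), or 26.4% of control. On the log2 scale it fell by 1.83 (SE 0.093, limma adjusted p = 2.62e-08). It ranked 6 from the lowest change of all 7612. The genes most like it over the 10 arrays were Adssl1, a muscle form of an enzyme of purine synthesis (0.993), Mstn, the inhibitor of muscle growth myostatin (0.993), Xpr1, a phosphate exporter (0.991), Rmnd5a (0.990) and the kinesin Kif1c (0.990), and 135 probe sets had an r above 0.95.

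Myl1 encodes both fast essential chains, the long and the short form, from 1 gene, and its single probe set does not tell them apart. It read 32157, 42328, 46204, 33336 and 22730.2 in control and 21871, 21859.6, 23537, 18039 and 35227 in mdx. Control replicate 5 fell among the mdx arrays and mdx replicate 5 among the control arrays. The means were 35351 ± 9220 and 24107 ± 6536, with a log2 difference of -0.54 (95% confidence interval -0.97 to -0.11, limma adjusted p = 0.0545), which missed the threshold and became -0.061 after quantile normalization (adjusted p = 0.712) and 0.091 with arrays scaled to the hybridization controls. It passed when testing required intensities above the noise level (adjusted p = 0.0455). Without control replicate 5 it was -0.69 (adjusted p = 0.0113) and without mdx replicate 5 -0.68 (adjusted p = 0.0118), both past the threshold.

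Myl6b, an essential chain first described in slow muscle, was too dim to be tested. Its probe set 92670_at read 51.9, 20.1, -64.3, -93.9 and 30.9 in control and 38.0, 572, 787, 425 and 486 in mdx. Thus 4 mdx arrays stood above the noise level, and mdx replicate 1 stood within the control range. With no filter on dim probe sets, the log2 change was 1.01 (adjusted p = 0.0178). The other Myl6b probe set, 97101_at, stayed between -56.3 and 145 on all arrays, below the noise level, and had a log2 difference of 0.062 with no filter (adjusted p = 0.763).

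Of the regulatory chains, Myl2, the slow and ventricular form, fell the most. It read 27608, 24819, 24916, 24701 and 21889.6 in control and 7198, 7272, 7560, 7497 and 7742 in mdx. All mdx arrays lay below all control arrays, and the SD was 2.96% of the mean in mdx and 8.16% in control. The mean went from 24787 ± 2024 to 7454 ± 221 (SD, n = 5), 30.1% of control. The log2 scale gave -1.68 (SE 0.071, limma adjusted p = 7.88e-09). It ranked 14 from the lowest change of all 7612.

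Mylpf, the fast regulatory chain, was read by 2 probe sets that gave different calls. Probe set 92881_at read 13925, 18603, 21992, 14522 and 9704 in control and 8902, 5169.9, 9284, 5722 and 13148 in mdx. The groups overlapped, since mdx replicate 5 lay above control replicate 5. The mean went from 15749 ± 4703 to 8445 ± 3208, and it was called lower by limma, at -0.90 on the log2 scale (SE 0.25, adjusted p = 0.0157), a call lost with no filter (adjusted p = 0.0634), after quantile normalization (-0.68, adjusted p = 0.0545) and with arrays scaled to the hybridization controls (-0.28, adjusted p = 0.228).

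Probe set 162101_f_at, whose suffix marks probes that can bind several related transcripts, read 10479.5, 17759, 12345, 12075 and 10055.5 in control and 8946, 8312, 9662, 8328 and 11904 in mdx. Its highest array was control replicate 2, while that of 92881_at was control replicate 3, and the groups overlapped. Its log2 difference of -0.38 (SE 0.15, adjusted p = 0.064) did not pass and was 0.24 with arrays scaled to the hybridization controls. It passed without control replicate 1 (-0.44, adjusted p = 0.0494), control replicate 5 (-0.45, adjusted p = 0.0399) or mdx replicate 5 (-0.47, adjusted p = 0.0275). The difference between the Mylpf probe sets on the same array shifted by 0.51 (exact permutation p = 0.0476, adjusted p = 0.0544), and it passed without control replicate 5 or mdx replicate 5 (0.60, adjusted p = 0.0423, in both cases).

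Myl7, the atrial regulatory chain, was below the noise level on every array and was not tested. It read 181, 207, 121, 178 and 131 in control and 14.3, 97.4, 18.5, 75.5 and 104 in mdx. The groups did not overlap, but with both below the noise level no fold is given. With no filter its log2 difference was -0.31 (adjusted p = 0.0186).

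Mylk encodes the kinase that phosphorylates the regulatory chain in smooth muscle and many other cells. It read 1171, 1234, 1913, 1331 and 1634 in control and 781, 909.9, 889.8, 947 and 1414 in mdx. The groups overlapped only through mdx replicate 5. The mean went from 1456 ± 311 to 988 ± 246, called lower at -0.43 (SE 0.14, limma adjusted p = 0.03), but the sign turned to 0.057 with arrays scaled to the hybridization controls. The call was lost with no filter (adjusted p = 0.0725) and without control replicate 3 (-0.34, adjusted p = 0.0703), control replicate 5 (-0.39, adjusted p = 0.0703) or mdx replicates 1 (-0.37, adjusted p = 0.0721), 2 (-0.41, adjusted p = 0.0621), 3 (-0.40, adjusted p = 0.0643) or 4 (-0.42, adjusted p = 0.057). Of 8 tested markers of smooth muscle and pericytes, 1 rose and 2 fell (4 and 0 with arrays scaled to the hybridization controls), with a sum over the 9 measured of 24722 to 26746 in control and 22643 to 27932 in mdx and Pdgfrb below the noise level throughout. Their part in the Mylk result was not tested.

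**Figure D2:**
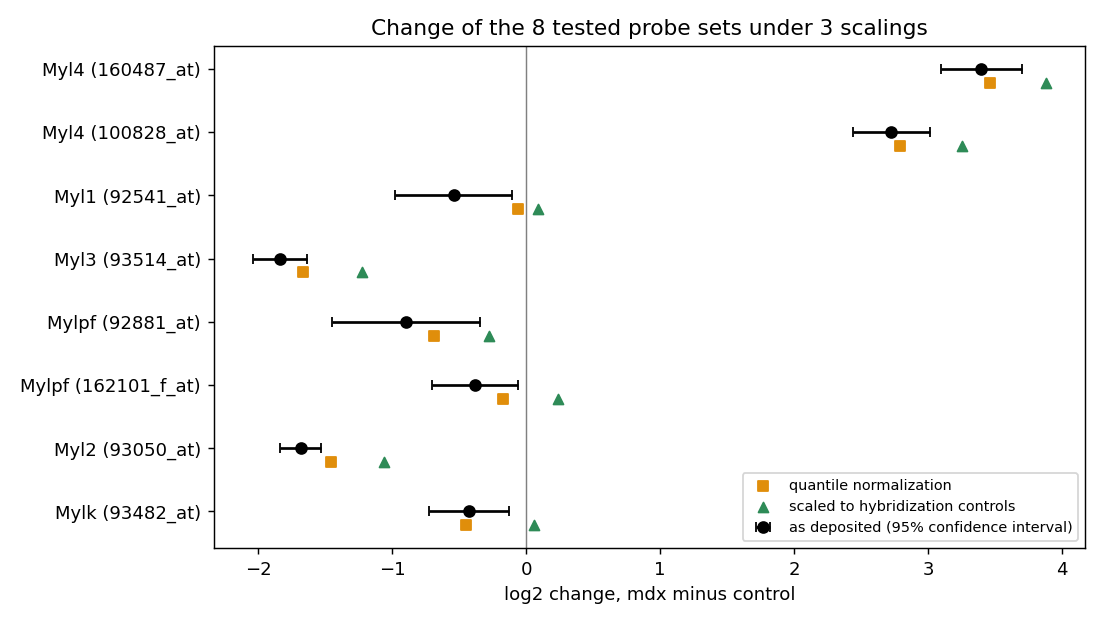
Log2 change, mdx minus control, of the 8 tested probe sets: black points with 95% confidence intervals for the deposited scaling, orange squares after quantile normalization and green triangles with arrays scaled to 9 hybridization control probe sets. Myl4 stays above 0 and Myl3 and Myl2 below 0 under all 3, while Myl1, Mylk and 162101_f_at of Mylpf cross 0 under the last, at 0.091, 0.057 and 0.24.

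Whether 2 members changed unequally was tested on the difference of their log2 values on the same array, which scaling of a whole array leaves nearly as it is. The level of such a difference depends on the probes, and only its shift between the groups is read. The slow and fast essential chains parted: Myl3 minus Myl1 went from -1.17 ± 0.38 in control to -2.47 ± 0.43 in mdx (SD, n = 5), a shift of -1.29 (exact permutation p = 0.00794, adjusted p = 0.0127 over 8 differences). Myl4 minus Myl1 shifted by 3.94 and Myl4 minus Myl3 by 5.23, both with no overlap between the groups (exact permutation p = 0.00794 and adjusted p = 0.0127 for each).

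Among the regulatory chains, Myl2 minus Mylpf (92881_at) went from 0.69 ± 0.40 to -0.096 ± 0.50, a shift of -0.79 that missed the threshold after adjustment (exact permutation p = 0.0397, adjusted p = 0.0529). It rests on the probe set: with 162101_f_at the shift was -1.30, from 0.99 ± 0.32 to -0.31 ± 0.18 with no overlap (exact permutation p = 0.00794, adjusted p = 0.0127). With 92881_at it passed without mdx replicate 2 (-0.93, adjusted p = 0.0423) or mdx replicate 4 (-0.90, adjusted p = 0.0454). For the slow pair no unequal change was called, which does not show that the changes were equal. Myl2 minus Myl3 was 0.71 ± 0.14 in control and 0.86 ± 0.17 in mdx, a shift of 0.15 (exact permutation p = 0.19, adjusted p = 0.19). The shift was 0.21 after quantile normalization (adjusted p = 0.0556) and 0.22 without mdx replicate 4 (adjusted p = 0.0454), which passed. For the fast pair the probe sets of Mylpf disagreed. With 92881_at, Mylpf minus Myl1 was at -1.16 ± 0.057 in control and -1.51 ± 0.30 in mdx, a shift of -0.36 (exact permutation p = 0.00794, adjusted p = 0.0127) that was -0.23 without mdx replicate 2 and -0.62 after quantile normalization. With 162101_f_at the shift was 0.16, of the opposite sign (exact permutation p = 0.333, adjusted p = 0.333).

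**Figure D3:**
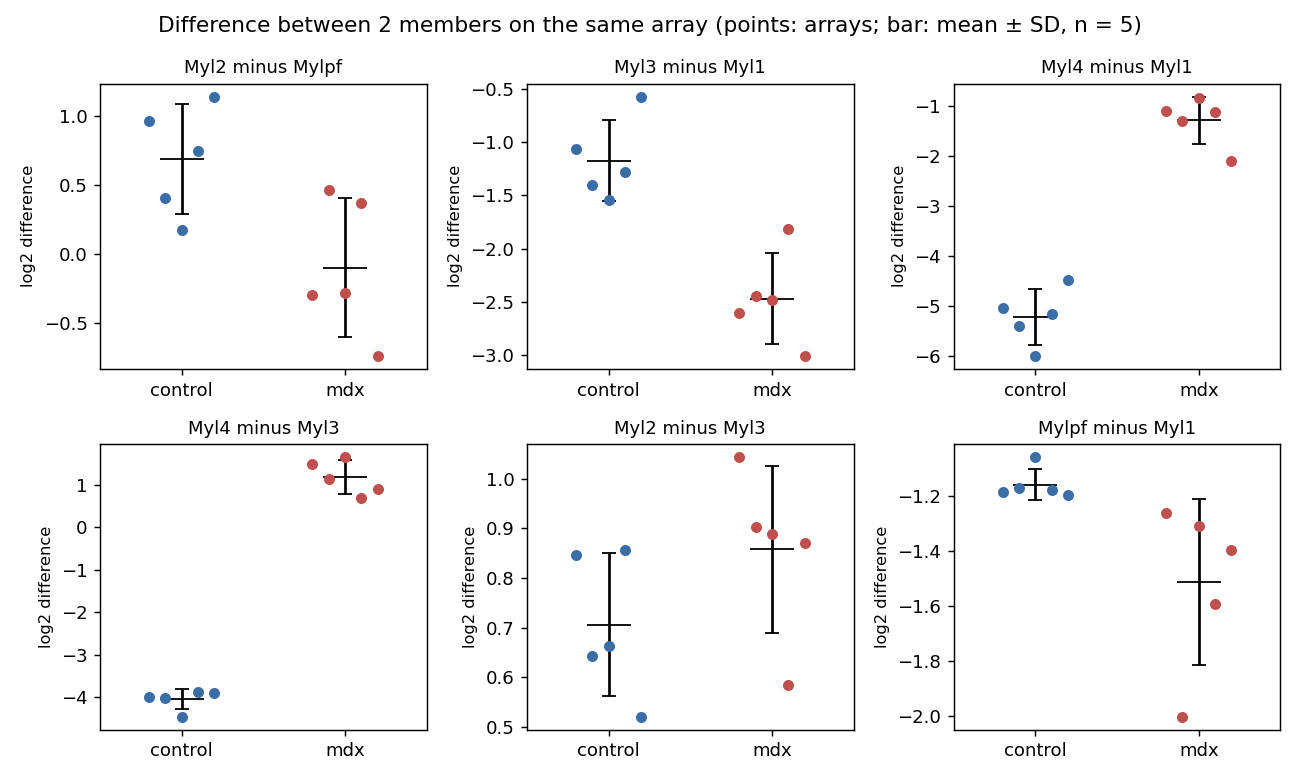
Difference of the log2 values of 2 members on the same array, for 6 pairs, control in blue and mdx in red, replicates 1 to 5 from left to right, with mean ± SD (n = 5) and Mylpf read by 92881_at. Myl3 minus Myl1, Myl4 minus Myl1, Myl4 minus Myl3 and Mylpf minus Myl1 show no overlap between the groups, and Myl2 minus Myl3 overlaps.

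With Mylpf read by 92881_at, the fast chains varied from array to array within a group more than the slow chains. In control, the SD was 26.1% of the mean for Myl1 and 29.9% for Mylpf (92881_at), against 6.03% for Myl3 and 8.16% for Myl2. In mdx it was 27.1% and 38.0%, against 14.6% and 2.96%. For the other Mylpf probe set, 162101_f_at, it was 24.5% in control and 15.8% in mdx, the latter just above that of Myl3. Myl1 and 92881_at were high and low on the same control arrays. On mdx replicate 2 they parted, at -0.10 and -0.59 from their mdx means on the log2 scale. Probe set 162101_f_at read 12345 on control replicate 3, against its control mean of 12543. Myl3 deviated by -0.23 and 0.28 on mdx replicates 1 and 4. On control replicate 5, Myl1 stood at -0.59 and Mylpf at -0.63 from their control means on the log2 scale, and the median of 13 tested fast partner genes stood at -0.43. On control replicate 3 the same values were 0.42, 0.52 and 0.29, and on mdx replicate 5 they were 0.58, 0.69 and 0.32. Myl3 deviated by 0.013, 0.053 and 0.040 and Myl2 by -0.17, 0.011 and 0.053 on those 3 arrays.

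The brightest probe sets, fast fibre genes among them, shared this pattern. The 76 brightest, 1% of those tested and a set defined after the values were seen, had median deviations of -0.29, 0.19 and 0.28 on the same 3 arrays. Of these 76, 65 were called lower in mdx and 0 higher by limma, against 17.8% and 15.8% of all tested. Their median log2 change was -0.54. Myl1 is among them and its difference was also -0.54. Some fast partner genes were brighter than Myl1, so this set shares genes with the fast partners and is no independent comparison. The part of high intensity itself in the fast chain result was not tested.

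**Figure D4:**
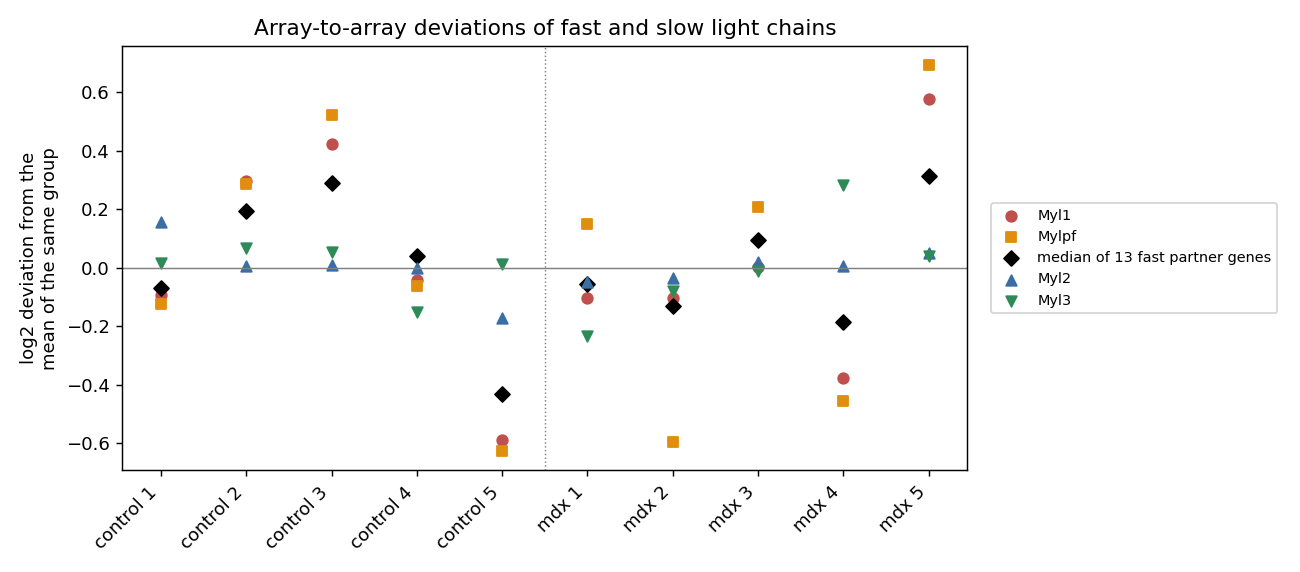
Log2 deviation of each array from the mean of its own group, for Myl1 (red circles), Mylpf (orange squares), the median of 13 fast partner genes (black diamonds), Myl2 (blue triangles up) and Myl3 (green triangles down). Myl1, Mylpf and the fast partners are lowest together on control replicate 5 (-0.59, -0.63 and -0.43). They are highest together on mdx replicate 5 (0.58, 0.69 and 0.32). Myl2 and Myl3 lie at -0.17 and 0.013 on control replicate 5 and at 0.053 and 0.040 on mdx replicate 5.

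The partners of each light chain in its own fibre type were read from lists, each gene by its brightest tested probe set. The counts stand beside 15.8% of all tested probe sets called higher and 17.8% called lower. Of 16 embryonic and regenerating fibre genes tested, 11 rose, 2 fell and 3 did not pass, with a median log2 change of 1.16. Igf2 rose by 3.27, the imprinted zinc finger gene Peg3 by 1.87, and Ankrd1, a stress-induced ankyrin repeat protein, was at least 6.54-fold higher. Csrp3, a Z-disc protein that stands in this list and in the slow list, had a log2 change of -2.09. The embryonic myosin heavy chain Myh3, which pairs with Myl4 in new fibres and was singled out after its values were seen, went from 256 to 2579 in mean intensity and was at least 6.45-fold higher.

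The 12 genes of slow fibres had a median of -0.67, with 9 lower, 2 higher and 1 short of the threshold. With arrays scaled to the hybridization controls the median was -0.066 and 3 fell, which were Myh7, Csrp3 and Ankrd2 (-0.99, -1.52 and -1.14). The slow myosin heavy chain Myh7, the partner of Myl2 and Myl3, went from a mean intensity of 6766 to 2014, a log2 change of -1.56. The log2 changes of Csrp3, the stretch-responsive Ankrd2 and the slow tropomyosin Tpm3 were -2.09, -1.73 and -0.99. The 2 that rose, singled out after their values were seen, were Tnni1, the slow troponin I, by 0.35, and Casq2, the slow and cardiac calsequestrin, by 0.44 (limma adjusted p = 0.049 and 0.00928). The call of Tnni1 was lost in 11 of 21 alternatives, with adjusted p up to 0.113, and that of Casq2 in 0. The summed intensity of the slow genes ran from 119203 to 161425 in control and from 72809 to 85987 in mdx.

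The 13 genes of fast fibres that were tested had a median of -0.53, with 9 lower, 1 higher and 3 short of the threshold, but the direction rests on the scaling. After quantile normalization the median was -0.080 and 2 fell, and with arrays scaled to the hybridization controls it was 0.10 and 0 fell. The fast troponin Tnni2, the actinin Actn2, which is in the slow list too, and the fast myosin heavy chain Myh1 had log2 changes of -0.68, -0.52 and -0.42, while the tropomyosin Tpm1 rose by 0.34. Of these, Actn2 (0.074) turned its sign with the hybridization controls, and Myh1 did so with them (0.21) and after quantile normalization (0.067).

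Outside the sarcomere, 7 genes of smooth muscle and non-muscle myosin were tested, of which 2 rose, 3 fell and 2 did not pass, with a median of -0.031. Myl12b, a non-muscle regulatory chain, the heavy chain Myh14 and the smooth muscle heavy chain Myh11 had log2 changes of -0.39, -0.85 and -0.41, while the unconventional myosin Myo1c rose by 0.69. Of 9 genes that act on light chain phosphorylation, 1 rose, 3 fell and 5 did not pass, where 33.6% of all tested probe sets were called. The median of the 9 was -0.12. Ppp1cb and Ppp1cc, catalytic subunits of the phosphatase that reverses the kinase, had log2 changes of -0.66 and -0.40, and Camk2b, a calmodulin-dependent kinase, fell by 0.35. With arrays scaled to the hybridization controls, both medians turned positive (0.22 for myosin and 0.21 for phosphorylation), as did Myl12b (0.22), Ppp1cc (0.17) and Camk2b (0.21), and 1 gene of the former list and 0 of the latter fell.

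**Figure D5:**
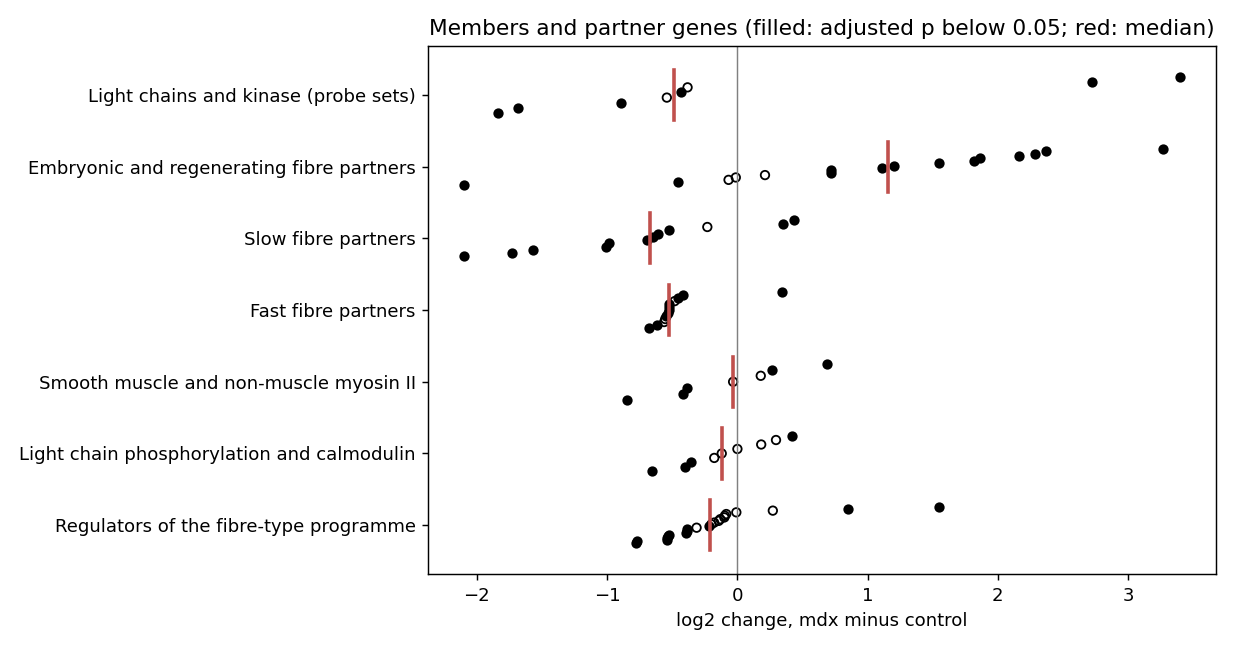
Log2 change, mdx minus control, of the 8 tested light chain and kinase probe sets and of the tested genes of 6 partner lists, each gene as a point, filled where the adjusted p was below 0.05, with the median in red. The embryonic list has its median at 1.16, the slow list at -0.67 and the fast list at -0.53. When arrays are scaled to the hybridization controls, the slow median moves to -0.066 and the fast median to 0.10.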

How the data were processed

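The deposited table gives probe set intensities on a linear scale for 10 arrays, 5 control and 5 mdx. Which software, background correction and scaling made them is not given in the sources used here. On the values, 19.7% to 23.8% per array were below 0. The file holds 12488 probe sets, of which 66 controls were left out of the tests. By the platform's annotation, 10833 of the rest named 1 gene, 396 several and 1193 none, and symbols looked up in the RefSeq table of assembly GRCm38.p6 changed for 0.

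Values below 0 were set to 0, a noise level of 372, the root mean square of the 27659 values below 0, was added, and log2 was taken. Testing required at least 5 arrays above 134, the value below which 40% of all intensities lay. The test was limma (version 3.58.1, under R 4.3.3), with lmFit and a trended eBayes, two-sided, and Benjamini-Hochberg adjustment over 7612 probe sets. Log2 changes are mdx minus control. Exact permutation tests over arrays compared within-array differences of 2 probe sets. A bound ("at least") sets the brighter group's geometric mean against the noise level. The fit was tested on simulated data. Alternatives changed the pseudocount, filter, scaling, variance model, block and arrays. The probe sets named are all members, in each list up to 4 genes with the smallest p (1 such gene is not reported here), Dmd, 3 list genes singled out after their values were seen (Myh3, Tnni1, Casq2), list genes whose direction turned with the scaling, and the 5 probe sets most correlated with the brightest of Myl4 and of Myl3. Also named are markers below the noise level on all arrays, and Hba-a1, which made up most of the sum of its list. Members and lists were chosen with earlier results of these data known. Promoter windows, the bases before a gene's start, were matched by symbol for 8 of 9 genes.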

Additional observations from a re-analysis of the deposited data

Results flagged for a closer look

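In 22 groups of 5 arrays, 11 probe sets in 2 groups each, 3 arrays stood apart from the other 4 by Dixon's test on the log2 scale, and chance gives about 1 in 20 groups. For Myl4 (160487_at), control replicate 3 was low at 351, and without it the log2 change was 3.31. For Myl3, control replicate 4 was low at 13480.5, and without it the change was -1.87. For Myl6b (97101_at), mdx replicate 5 was high at 145, which is below the noise level.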

How the results depend on the processing

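Across 21 alternatives, both Myl4 probe sets (2.44 to 3.88), Myl3 (-1.90 to -1.23) and Myl2 (-1.72 to -1.06) kept their direction and call. The count of members called ran from 4, with scaling to the hybridization controls, to 8, without mdx replicate 5. That scaling moved the median of all tested probe sets to 0.35 and the share of calls that were higher in mdx from 47.1% to 96.6%, and it turned the sign of Myl1 (0.091), Mylk (0.057) and Mylpf 162101_f_at (0.24). The cause was not tested. With that scaling, the slow genes that fell numbered 3, the fast genes 0, the embryonic genes 1, the myosin II genes 1, the phosphorylation genes 0 and the regulators 0, while 4 phosphorylation genes and 7 regulators rose. After quantile normalization 2 fast genes fell. The slow genes that rose numbered 1, Casq2 without Tnni1, with 0.5 times the noise level, with no filter, without the variance trend, with a robust fit, and with a noise level of 157 from the median of the values below 0, an alternative chosen after seeing the data. Leaving out single arrays gave 1 to 2 there, 1 to 2 phosphorylation genes that rose, 0.11 to 0.22 for Myl2 minus Myl3, -0.93 to -0.63 for Myl2 minus Mylpf, and 0.39 to 0.60 for the Mylpf probe sets. With the other Mylpf probe set, also chosen after seeing the data, Myl2 minus Mylpf shifted by -1.30 and Mylpf minus Myl1 by 0.16, the opposite sign, against -0.42 to -0.23 for the latter with single arrays left out. Same-numbered arrays did not deviate together (correlations of -0.16 to 0.044, 0 of 5 over 0.1), so no pairing by number was seen. A small shared effect could go unseen in this check. With the replicate number as a block, 2238 of 7612 probe sets were called against 2554, 6 members were called, and 0 phosphorylation genes rose. The within-array differences were recomputed for the pseudocounts, quantile normalization, other probe sets and left-out arrays only. The noise level limits Myl6b and Myl7.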

Other observations

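Of 22 tested regulators of the fibre-type programme, 2 rose, 10 fell and 10 did not pass. Over all tested probe sets, 15.8% were called higher and 17.8% lower. The median log2 change of the regulators was -0.21, which turned to 0.29 with arrays scaled to the hybridization controls, when 0 fell. Myog and Myod1, transcription factors that drive myoblast differentiation, rose by 1.55 and 0.85. Mef2d, a partner of these factors at muscle promoters, and Tead1, which binds MCAT elements, had log2 changes of -0.53 and -0.54, and with that scaling 0.078 and -0.011.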
